A study of Homo sapiens with 60 samples.

Results

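The 8 genes described here encode the neutrophil chemokines CXCL1, CXCL2, CXCL3, CXCL5 and CXCL8, the chemokine CCL20, the protease inhibitor PI3 and the acute phase protein SAA1. They are 8 of the 60675 genes in the count table, and each symbol matched 1 Ensembl identifier. They were selected on their values at the high dose of the water decoctions against vehicle in earlier results of these data, so those values, and high against low dose of the decoctions, are given as a description, without a test. RNA sequencing libraries came from HT29, an established human colorectal adenocarcinoma line of epithelial origin, exposed for 24 h to herbal extracts of Korean medicine. A whole culture of a single line was sequenced, so no immune cell was part of the design.

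The vehicle group was labelled 0.1% DMSO in its sample records and 2% DMSO in the series text. Water extracts (decoctions) of the multi-herb formulas Palmul-tang and Sibjeondaebo-tang were given at 20, 100 and 500 µg/mL. Ethanol extracts of Poria Cocos, Atractylodis Rhizoma and Panax Ginseng were given at the same 3 doses, and that of Glycyrrhizae Radix at 14, 70 and 350 µg/mL. Each of these 19 groups had 3 libraries. The ethanol extract of Angelicae Gigantis Radix, at 12.8, 64 and 320 µg/mL, had 1 library per dose. The labels do not say whether the libraries of a group came from separate cultures, so a p-value here measures the spread between libraries, which may be technical. Doses are called low, medium and high below.

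CXCL1, CXCL2, CXCL3, CXCL5 and CXCL8 are secreted CXC chemokines that draw neutrophils into tissue through the receptor CXCR2, and CXCL8 also acts through CXCR1. CCL20 binds CCR6 on lymphocytes and dendritic cells, PI3 (elafin) blocks neutrophil elastase, and SAA1 is a lipid-binding protein of the acute phase response. In intestinal epithelium these genes are known to be switched on by microbial products and by cytokines such as interleukin-1, tumour necrosis factor and interleukin-17, largely through the transcription factor NF-kB.

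The promoters of the chemokine members are shown first because they carry closely related NF-kB-type sequence words at nearly the same distance from the start. RefSeq promoter sequences (build GRCh38.p14) were at hand for 6 of the 8 members, the exceptions being PI3 and SAA1. The 120 bases before the RefSeq start are printed 5′ to 3′ on the strand of the gene, with capitals marking matches to GGAATTTCC or to the kappaB consensus.
CXCL1: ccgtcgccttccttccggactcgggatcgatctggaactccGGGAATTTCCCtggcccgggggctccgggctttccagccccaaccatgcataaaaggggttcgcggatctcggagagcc
CXCL2: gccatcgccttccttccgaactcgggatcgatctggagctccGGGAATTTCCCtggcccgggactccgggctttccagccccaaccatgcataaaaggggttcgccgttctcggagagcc
CXCL3: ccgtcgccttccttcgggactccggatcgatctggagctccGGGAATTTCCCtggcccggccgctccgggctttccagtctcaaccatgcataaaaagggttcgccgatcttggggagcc
CXCL5: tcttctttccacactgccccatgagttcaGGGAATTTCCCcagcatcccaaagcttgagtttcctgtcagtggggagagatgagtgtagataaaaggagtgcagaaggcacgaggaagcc
CXCL8: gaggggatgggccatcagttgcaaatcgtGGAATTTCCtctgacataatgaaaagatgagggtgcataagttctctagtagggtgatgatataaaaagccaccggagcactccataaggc
CCL20: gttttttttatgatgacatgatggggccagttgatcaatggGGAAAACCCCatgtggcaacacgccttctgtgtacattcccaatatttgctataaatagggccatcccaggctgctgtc

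These stretches lie at chr4:73869273-73869392 (plus strand) for CXCL1, chr4:74099196-74099315 (minus) for CXCL2 and chr4:74038690-74038809 (minus) for CXCL3. That of CXCL5 is chr4:73998678-73998797 (minus), that of CXCL8 chr4:73740449-73740568 (plus) and that of CCL20 chr2:227813722-227813841 (plus). The 5 CXC genes therefore share a chromosome 4 cluster, and CCL20 lies on chromosome 2. The 250 bases before the start were searched on both strands. GGAATTTCC was found in all 5 CXC members, beginning at position -78 relative to the start in CXCL1 and CXCL3, -77 in CXCL2, -90 in CXCL5 and -91 in CXCL8. It was not found in CCL20, and 0.428% of 27305 RefSeq promoters hold it in the same window. The kappaB consensus, a looser word of 10 letters that can overlap GGAATTTCC, was matched in CXCL1, CXCL2, CXCL3, CXCL5 and, on the opposite strand, CCL20, against 5.054% of all promoters. In the 4 CXC genes the matches on the 2 strands overlap each other and GGAATTTCC, so they are a single stretch of 11 capitals. CXCL8 alone among the 6 held TGANTCA, a word bound by AP-1 factors and found in 6.596% of promoters, at positions -137 to -131 and so upstream of the printed stretch. TATAAA was matched in CXCL8 and CCL20, and in 11.133% of promoters. These are matches of letters only, and no binding was measured.

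Library totals ran from 19.31 to 29.62 M estimated counts, with a median of 25.06 M. Values below are CPM, the counts of a gene per M counts of its library, with library sizes adjusted by TMM factors. The mitochondrial share of counts was 8.91 to 11.63% in the vehicle libraries, 6.52 to 7.88% in the decoction libraries and 6.54 to 10.05% in the others. Summed markers of colonic epithelium (10 of 10 with counts) were at 11400 to 13800 CPM in every library. Most of the sum came from the keratins KRT8 and KRT18, with medians of 6870 and 4000 CPM. EPCAM, VIL1, CDX2 and CDX1 had medians of 545, 176, 4.59 and 0.905 CPM. Summed leukocyte markers (7 of 8 with counts, nearly all from CD68 and ITGAM, with FCGR3B at 0 and PTPRC and MPO at no more than 2 counts) were at 8.52 to 10.7 CPM in vehicle, 6.04 to 9.05 in the decoctions and 6.66 to 12.1 in the other extracts. Fibroblast and endothelium markers summed to 2.57 to 4.19, 2.52 to 3.62 and 2.41 to 4.16 CPM in the same order. In whole cultures, more cells making a transcript and more transcript per cell cannot be told apart.

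For every member, the lowest of the 18 decoction libraries lay above the highest of the other 42 libraries. This holds at the low dose of 20 µg/mL as well as at 500 µg/mL, and the plot of each library shows it. The selection used the high dose values, so this separation is in part fixed by the choice of genes. The share of all genes that separate in this way was not counted.

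**Figure D1:**
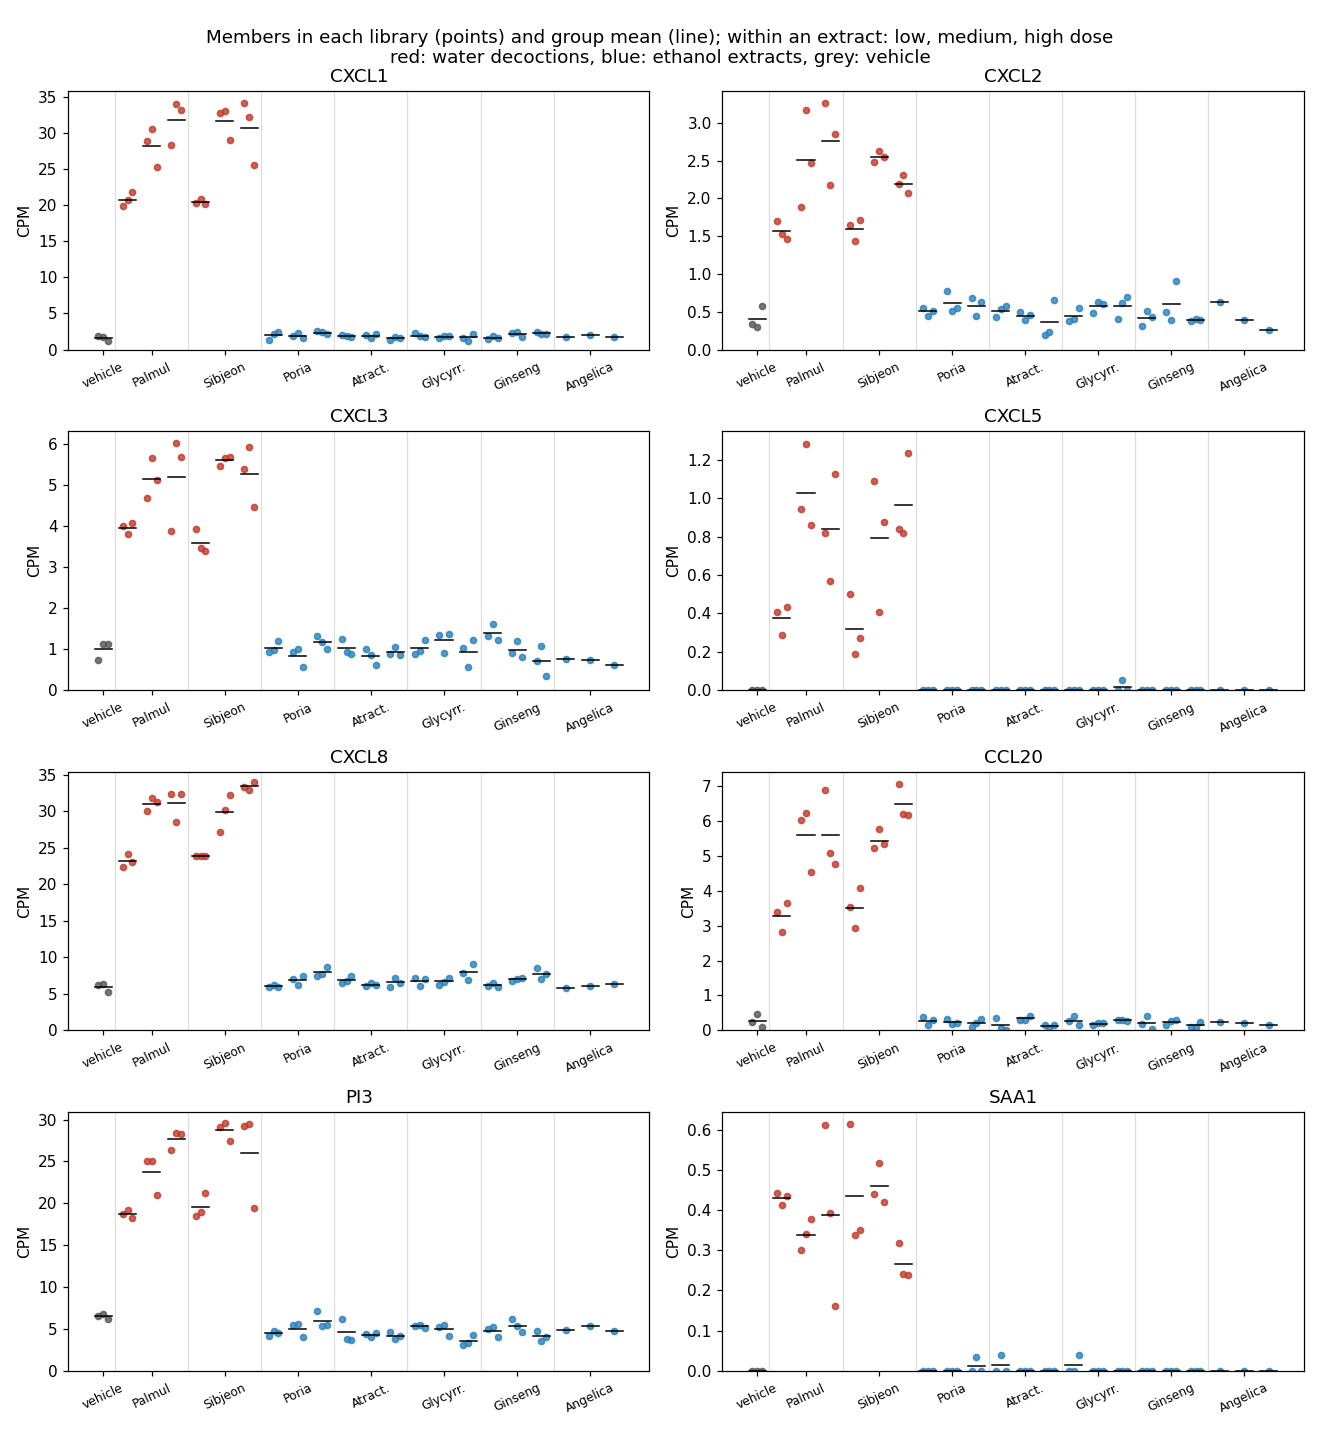
CPM of each member (vertical axes, starting at 0) in each of the 60 libraries (points), with group means (lines), ordered as vehicle and then each extract at low, medium and high dose. The red decoction libraries stand above all others for each gene, for example CXCL1 at 19.8 to 34.1 CPM against 1.22 to 2.57 elsewhere.

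CXCL1, a chemokine of the CXCR2 group, was low in vehicle and 12.5-fold to 19.6-fold higher in the 6 decoction groups. Vehicle libraries were at 1.95, 1.68 and 1.22 CPM. Palmul-tang gave 19.8, 20.7 and 21.8 CPM at the low dose, 28.9, 30.5 and 25.3 at the medium dose and 28.3, 34.0 and 33.2 at the high dose. Sibjeondaebo-tang gave 20.2, 20.8 and 20.1 CPM at the low dose, 32.7, 33.0 and 29.01 at the medium dose and 34.1, 32.2 and 25.5 at the high dose. The low dose libraries of both formulas lay below every medium and high dose library, while medium and high dose libraries overlapped. Over the 6 decoction groups the log2 fold change against vehicle ran from 3.64 to 4.29, with SE of 0.14 to 0.15. By order of group means, Palmul-tang high (31.8 CPM), Sibjeondaebo-tang medium (31.6), Sibjeondaebo-tang high (30.6) and Palmul-tang medium (28.2) overlapped in their libraries. Both low dose groups followed, at 20.7 and 20.4 CPM. The 12 ethanol groups with 3 libraries were between -0.06 and 0.54 log2 units from vehicle.

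CXCL8 encodes interleukin-8, a strong neutrophil attractant, and had the highest vehicle level of the chemokine members per kilobase of exon (2.60 CPM). Its vehicle libraries were at 6.20, 6.37 and 5.18 CPM. Palmul-tang libraries were at 22.4, 24.2 and 23.0 CPM at the low dose, 29.99, 31.8 and 31.3 at the medium dose, and 32.3, 28.6 and 32.3 at the high dose. Sibjeondaebo-tang libraries were at 23.8 CPM in each at the low dose, 27.1, 30.2 and 32.3 at the medium dose and 33.3, 32.9 and 34.0 at the high dose. Groups within a formula thus separated low from medium and high, and the 3 Sibjeondaebo-tang high libraries were the highest without overlapping any Palmul-tang library. The log2 fold change against vehicle was 1.97 to 2.49 (3.9-fold to 5.63-fold) in the 6 groups.

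CXCL2 and CXCL3, close relatives of CXCL1, were less abundant, at 1.84 and 2.34 CPM per kilobase with high dose Palmul-tang against 24.5 for CXCL1. CXCL3 was at 0.73, 1.12 and 1.11 CPM in vehicle. It was at 4.00, 3.80 and 4.07 CPM with low dose Palmul-tang, at 4.67, 5.67 and 5.12 at the medium dose and at 3.88, 6.02 and 5.67 at the high dose. With Sibjeondaebo-tang it was at 3.92, 3.47 and 3.38, then 5.47, 5.65 and 5.68, then 5.39, 5.93 and 4.46 CPM from low to high dose. A single Palmul-tang high library lay among the low dose libraries, and otherwise the low dose libraries of a formula lay below its others. CXCL2 was at 0.342, 0.306 and 0.582 CPM in vehicle, on 6 to 11 counts a library. Its decoction libraries ran from 1.43 to 3.27 CPM with a median of 2.18, and none of the other 42 libraries exceeded 0.908. Against vehicle the log2 fold changes were 1.93 to 2.74 for CXCL2 and 1.86 to 2.50 for CXCL3. The CXCL1, CXCL2 and CXCL3 transcripts are near-identical in part, so reads shared among them could have been divided between the 3 genes by the authors' estimation.

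CXCL5 was not detected outside the decoctions except for a single count in a high dose Glycyrrhizae Radix library. Vehicle libraries had 0 counts in all 3. Palmul-tang libraries held 11, 7 and 11 counts at the low dose, 22, 34 and 25 at the medium dose and 16, 16 and 28 at the high dose. Sibjeondaebo-tang libraries held 13, 5 and 7, then 32, 11 and 23, then 21, 17 and 31 counts. Every decoction library therefore had counts, with low dose libraries at 0.188 to 0.499 CPM and the others at 0.406 to 1.28, ranges that overlap. The upper limit that 0 counts allow was taken as 3 counts over the group. High dose Palmul-tang was at 16.3 times and high dose Sibjeondaebo-tang at 19.1 times that limit for vehicle. The counting error of the decoction counts is left out of such ratios. Over all fitted libraries, the decoctions held 330 counts in 18 libraries and the rest 1 count in 39, a ratio of 678 with an exact 95% interval of 121 to 26800 that covers counting error only.

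CCL20 was near the limit of detection in vehicle, with 5, 9 and 2 counts. Those libraries were at 0.244, 0.458 and 0.106 CPM. Palmul-tang libraries were at 3.41, 2.81 and 3.64 CPM at the low dose, 6.04, 6.23 and 4.54 at the medium dose and 6.89, 5.09 and 4.78 at the high dose. Sibjeondaebo-tang libraries were at 3.53, 2.94 and 4.08, then 5.23, 5.76 and 5.34, then 7.07, 6.21 and 6.17 CPM. In both formulas all low dose libraries lay below all medium and high dose libraries. The log2 fold change against vehicle was 3.58 to 4.56 (11.9-fold to 23.5-fold), with SE of 0.32 to 0.34. Without vehicle replicate 2, the highest of the 3, the log2 values in these 6 groups were higher, for example 4.93 in place of 4.33 for high dose Palmul-tang and 5.15 in place of 4.56 for high dose Sibjeondaebo-tang.

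PI3 was the member with the highest level per length. Its vehicle libraries were at 6.54, 6.82 and 6.14 CPM. Palmul-tang gave 18.7, 19.2 and 18.2 CPM at the low dose, 25.0, 25.1 and 21.0 at the medium dose and 26.4, 28.5 and 28.3 at the high dose. Sibjeondaebo-tang gave 18.5, 18.9 and 21.3, then 29.1, 29.6 and 27.5, then 29.2, 29.5 and 19.4 CPM. The last of these, high dose Sibjeondaebo-tang replicate 3, lay inside the low dose range for PI3. It was also the lowest of its group for CXCL1 (25.5 CPM) and CXCL3 (4.46 CPM), but the highest for CXCL8 (34.0 CPM). The log2 fold change against vehicle was 1.53 to 2.14 in the 6 decoction groups. Per kilobase of exon, PI3 was at 48.0 CPM with high dose Palmul-tang, CXCL1 at 24.5, CXCL8 at 13.7 and CCL20 at 3.51. In vehicle the order by CPM per kilobase was PI3 (11.3), CXCL8 (2.60), CXCL1 (1.25), CXCL3 (0.445), CXCL2 (0.273) and CCL20 (0.169). CXCL1 and CXCL8 thus stood in opposite order in vehicle and in the decoctions on this scale.

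PI3 and CXCL8 lay on opposite sides of vehicle in the ethanol extracts. For CXCL8 the group mean was below vehicle in 0 of 12 ethanol groups, with log2 fold changes of 0.02 to 0.43, and in 5 of them all 3 libraries lay above all 3 vehicle libraries. For PI3 the group mean was below vehicle in 12 of 12 ethanol groups, with log2 fold changes of -0.88 to -0.12, and in 10 of them all 3 libraries lay below all 3 vehicle libraries. These comparisons share the 3 vehicle libraries, and the share of all genes lying wholly above or below those libraries was not counted. The mitochondrial share was 8.91 to 11.63% in those and 6.54 to 10.05% in the extracts other than decoctions, and its part in these differences was not tested. For PI3 the 3 Angelicae Gigantis Radix libraries were at 4.71, 5.28 and 4.89 CPM from high to low dose, on 92 to 123 counts.

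SAA1 was as restricted to the decoctions as CXCL5 but had no upward course with dose. Vehicle libraries had 0 counts. Palmul-tang libraries held 12, 10 and 11 counts at the low dose, 7, 9 and 11 at the medium dose and 12, 11 and 4 at the high dose. Sibjeondaebo-tang libraries held 16, 9 and 9, then 13, 14 and 11, then 8, 5 and 6 counts. The group means were 0.431, 0.339 and 0.388 CPM in Palmul-tang and 0.434, 0.459 and 0.266 CPM in Sibjeondaebo-tang, in order of rising dose. Of the other 42 libraries 3 had a single count each. High dose Palmul-tang was at 7.33 times and high dose Sibjeondaebo-tang at 5.27 times the limit of 3 counts over the vehicle group. As for CXCL5, the counting error of the decoction counts is left out of these ratios. SAA2, its near-identical neighbour, did not pass the filter on low counts. SAA2 was at a mean of 0.238 CPM in the decoctions, 0 in vehicle and 0.0061 over all libraries outside the decoctions, and reads of this gene pair cannot be assigned with certainty.

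The decoctions were compared with ethanol extracts at 100 and at 20 µg/mL, as the mean of the 2 formulas against the mean of Poria Cocos, Atractylodis Rhizoma and Panax Ginseng. The libraries at 100 µg/mL were in neither contrast that chose the genes, and edgeR's quasi-likelihood test called 0.584% of the 16445 genes tested there. CXCL1 rose, at 29.9 CPM against 1.98 (log2 fold change 3.91 ± 0.08 SE, adjusted p = 3.05e-37). CXCL8 rose, at 30.4 against 6.71 CPM (2.18 ± 0.05, adjusted p = 6.22e-36), as did PI3, at 26.2 against 4.89 CPM (2.41 ± 0.08, adjusted p = 2.92e-27). CXCL3 (2.61 ± 0.13, adjusted p = 1.75e-21) and CXCL2 (2.21 ± 0.15, adjusted p = 1.25e-15) rose by amounts near that of PI3. CXCL5 and SAA1 reached the filter minimum of 0.394 CPM in none of the 39 other fitted libraries and CCL20 in 4, so these 3 entered the fit through the decoction libraries and are given as a description. CCL20 was at 5.52 against 0.277 CPM (4.32 ± 0.19). CXCL5 held 147 counts in 6 libraries against 0 in 9 (68.9 times the limit of 3 counts) and SAA1 65 against 0 (30.5 times that limit). For each of the 8 genes the 6 decoction libraries lay above all 9 ethanol libraries, and the share of all genes that do so was not counted.

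At 20 µg/mL the decoction libraries are also an arm of the high against low dose values known when the genes were chosen, so the members' values there are a description. CXCL1 was at 20.6 CPM against 1.80 (log2 fold change 3.51 ± 0.08 SE), CXCL8 at 23.5 against 6.34 (1.89 ± 0.05) and PI3 at 19.2 against 4.61 (2.05 ± 0.09). CXCL3 (1.73 ± 0.13) and CXCL2 (1.73 ± 0.17) differed by about the same amount as CXCL8. CCL20 was at 3.40 against 0.214 CPM (3.98 ± 0.21), and CXCL5 held 54 counts against 0 (25.6 times the limit of 3 counts). SAA1 held 67 counts against 1, a ratio of 95.2 with a counting interval of 16.5 to 3820. Again no decoction library overlapped an ethanol library for any of the 8 genes, with the share of all genes not counted. Over all genes edgeR called 0.45% at this dose, and of those 74 genes 61 were also called at 100 µg/mL, which is 82.4% of the first list and 63.5% of the second. All 60 titles name a single batch. The sample codes in the descriptions begin with 8 for all 18 decoction libraries and for no ethanol library, and the labels do not say what that number stands for. Preparation in water, herb composition and whatever the code marks cannot be told apart.

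**Figure D2:**
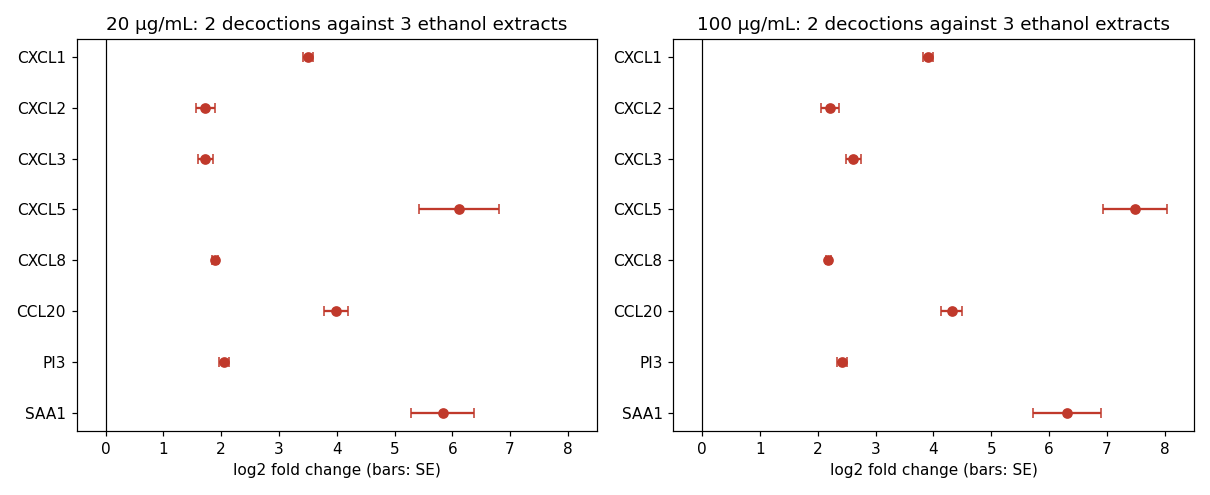
Log2 fold change (horizontal axis, bars are SE) of each member between the mean of 2 decoctions and the mean of 3 ethanol extracts at 20 µg/mL (left) and 100 µg/mL (right). All points lie to the right of 0, with CXCL1 at 3.51 and 3.91, and the values of CXCL5 and SAA1 are fitted values that depend on the prior count because the ethanol libraries were at or near 0.

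The course with dose was shallow over a 25-fold range. At 20 µg/mL the mean CXCL1 level was already 65.1% of the high dose level in Palmul-tang and 66.7% in Sibjeondaebo-tang. For CXCL8 these shares were 74.6% and 71.3%, for PI3 67.5% and 75.4%, for CXCL3 76.3% and 68.3%, for CCL20 58.7% and 54.3%, and for CXCL2 56.5% and 73.1%. CXCL5 had the smallest low dose shares, 45.0% and 33.2%, on few counts. The medium dose was at 82.0 to 123% of the high dose level for these 7 genes. SAA1 had low dose levels of 111% and 163% of the high dose level, on few counts. In Palmul-tang this direction rests on a single library: the SAA1 log2 difference of high minus low dose was -0.19, and 0.18 without high dose replicate 3, which held 4 counts.

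**Figure D3:**
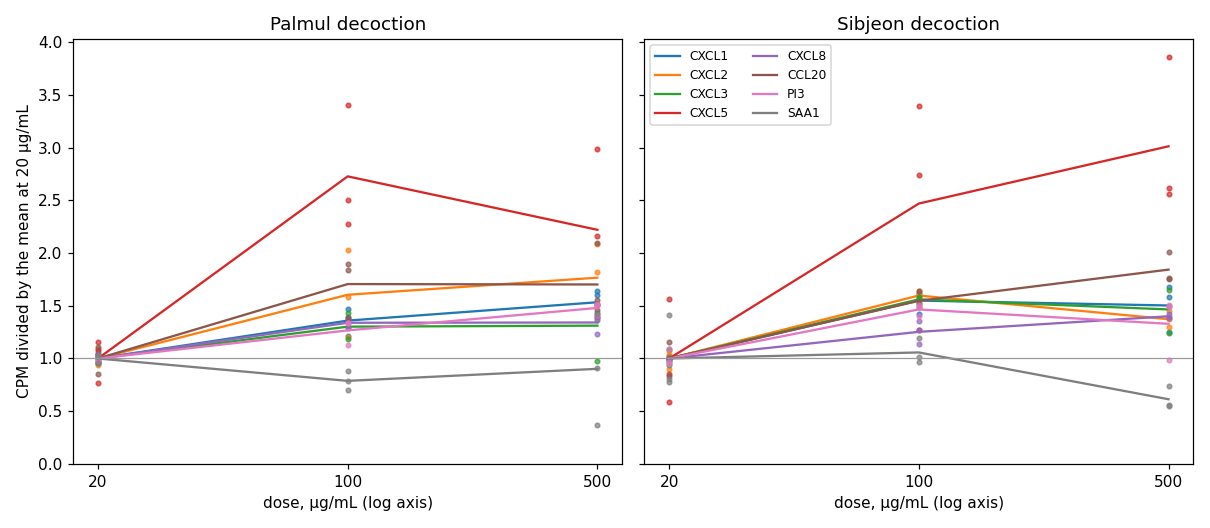
CPM of each member divided by its mean at 20 µg/mL (vertical axis), by dose on a log axis, with libraries as points and group means as lines, for Palmul-tang (left) and Sibjeondaebo-tang (right). Most lines climb to 100 µg/mL and flatten, CXCL5 climbs most, and the SAA1 mean lies above its low dose level only at medium dose Sibjeondaebo-tang (0.459 against 0.434 CPM).

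Between the medium and low doses edgeR's quasi-likelihood test called 1 gene in each formula, 0.00608% of those tested. The genes were CXCL8 in Palmul-tang and CXCL1 in Sibjeondaebo-tang. The low dose libraries are also an arm of the high against low dose values known at the choice of genes, so neither call is independent of that choice and the values are a description. CXCL8 differed by 0.42 ± 0.07 log2 units in Palmul-tang and 0.32 ± 0.07 in Sibjeondaebo-tang, with all medium dose libraries above all low dose libraries in both. Without low dose Palmul-tang replicate 1 it was not called (adjusted p = 0.0581 by edgeR). CXCL1 differed by 0.44 ± 0.09 and 0.63 ± 0.09, and PI3 by 0.34 ± 0.11 and 0.55 ± 0.11, Palmul-tang first, again without overlap of libraries. The share of all genes whose medium and low dose libraries do not overlap was not counted. From low to high dose the log2 differences were 0.62 ± 0.09 and 0.59 ± 0.09 for CXCL1, 0.42 ± 0.07 and 0.49 ± 0.07 for CXCL8, 1.13 ± 0.42 and 1.58 ± 0.42 for CXCL5, and -0.19 ± 0.41 and -0.69 ± 0.44 for SAA1, Palmul-tang first.

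No member differed between the 2 formulas beyond the test's threshold. edgeR called 0 genes (0%) between them at each dose. At an unadjusted p under 0.05 there were 399 genes at the low, 1215 at the medium and 913 at the high dose, and DESeq2 called 1, 1 and 3 genes, none of them members. For CXCL1 the difference of Palmul-tang minus Sibjeondaebo-tang had 95% intervals of -0.17 to 0.22 at the low dose, -0.35 to 0.02 at the medium dose and -0.12 to 0.25 at the high dose on the log2 scale. For CXCL8 these were -0.18 to 0.10, -0.08 to 0.19 and -0.24 to 0.03. PI3 at the medium dose was lower in all 3 Palmul-tang libraries than in any of Sibjeondaebo-tang (log2 difference -0.28 ± 0.11, edgeR adjusted p = 0.667). For CXCL5 and SAA1 the intervals were wide, reaching down to -0.96 for CXCL5 at the high dose and -1.24 for SAA1 at the medium dose.

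Within the ethanol extracts the members moved little. CXCL8 rose from low to high dose in Poria Cocos, from 5.89, 6.24 and 5.92 CPM to 7.40, 7.69 and 8.69 (0.40 ± 0.09, edgeR adjusted p = 0.0117), where 1.86% of genes were called. Without high dose replicate 3 or low dose replicate 3 its adjusted p was 0.102 or 0.0577, and in a fit of these 2 groups alone 0.118. In Panax Ginseng CXCL8 rose from 6.05, 6.47 and 5.88 CPM to 8.47, 7.01 and 7.76 (0.34 ± 0.10, edgeR adjusted p = 0.0404), where 2.52% were called. CXCL3 fell there from 1.31, 1.61 and 1.21 CPM to 0.713, 1.06 and 0.348 (-0.96 ± 0.27, edgeR adjusted p = 0.0398). Neither call held in the fit of these 2 groups alone (adjusted p of 0.242 and 0.277). Leaving out a library ended the CXCL3 call for 5 of the 6 libraries (all but high dose replicate 2), and the CXCL8 call for 4, replicates 1 and 3 of each dose. PI3 fell in Glycyrrhizae Radix from 5.38, 5.40 and 5.06 CPM to 3.04, 3.28 and 4.24 (-0.58 ± 0.18, edgeR adjusted p = 0.0142), in a comparison that called 24.9% of all genes. Without high dose replicate 1 or 2 its adjusted p was 0.102 or 0.0531. In Atractylodis Rhizoma 0 members were called by edgeR or DESeq2, against 3.95% of genes (2496 genes at an unadjusted p under 0.05).

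Between medium and low doses of the ethanol extracts edgeR called 0 members. The background was 0% in Poria Cocos, Glycyrrhizae Radix and Panax Ginseng and 0.00608% in Atractylodis Rhizoma, with 1019, 1045, 670 and 863 genes at an unadjusted p under 0.05. DESeq2 called 0 members too. Between Poria Cocos and Atractylodis Rhizoma no member was called at the high dose (0.979% of genes called), or at the medium and low doses (0%, with 575 and 1328 genes at an unadjusted p under 0.05). The difference between their high against low dose changes was called in 0.158% of genes and no member, with CXCL8 at 0.46 ± 0.13 (edgeR adjusted p = 0.229). The same difference between Glycyrrhizae Radix and Panax Ginseng was called in 12.9% of genes and no member, with PI3 at -0.38 ± 0.26 (edgeR adjusted p = 0.402), so the PI3 call in the former was not shown to be different from Panax Ginseng. The single Angelicae Gigantis Radix libraries held 33, 47 and 45 counts of CXCL1 and 123, 141 and 145 of CXCL8 from high to low dose, with no counts of CXCL5 or SAA1. Their CXCL1 levels of 1.69 (exact Poisson 95% interval 1.16 to 2.37), 2.03 (1.49 to 2.7) and 1.79 CPM (1.3 to 2.39) all included values of the vehicle range.

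Other chemokines, cytokines and defence genes gave context for the members in the decoctions against the ethanol extracts. CXCL6, CXCL10, IL17C and C3, and at 100 µg/mL also IL32, IL23A and DUOX2, had ethanol means below the filter minimum of 0.394 CPM. Such genes may have entered the fit through the decoction libraries, so their values and their part in the list counts are a description. CXCL6, a further neutrophil chemokine of the chromosome 4 cluster, rose from 0.276 to 2.23 CPM at 20 µg/mL (3.01 ± 0.19) and from 0.271 to 3.66 CPM at 100 µg/mL (3.75 ± 0.18). Its promoter also held GGAATTTCC, beginning at position -89. Of 17 other chemokines 8 passed the filter, 2 rose at the low dose (CXCL6 and CXCL10, the latter 1.42 ± 0.31 at 0.355 CPM) and 1 at the medium dose. CXCL16, CCL15 and CCL28, all measured at over 2 CPM, were not called. Of 18 cytokines 9 passed the filter, and 3 rose at the low and 5 at the medium dose. The former included CSF1, a growth factor of macrophages (1.00 ± 0.15), and the latter CSF1 (1.39 ± 0.15), IL32 (1.71 ± 0.19) and TNFSF15, a TNF-family cytokine (0.15 ± 0.04). IL17C, an epithelial cytokine that acts back on epithelium, was below 1 CPM and rose by 2.29 ± 0.32 and 3.71 ± 0.31. IL6, TNF and IL1B reached at most 1, 9 and 6 counts in any library and were not tested. Mean TNF was 0.143 CPM in the decoctions, 0 in vehicle and 0.0156 over all libraries outside the decoctions. In the same order IL1B was at 0.12, 0.0821 and 0.0648 CPM, and IL6 at 0, 0 and 0.00191.

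Among 26 other defence genes 10 passed the filter, 4 rose at the low dose and 5 at the medium dose. C3, the central complement component, rose from 0.0921 to 1.75 CPM at 20 µg/mL (4.20 ± 0.26) and from 0.0762 to 2.31 CPM at 100 µg/mL (4.89 ± 0.25). PIGR, the receptor that carries IgA across the epithelium, rose by 2.85 ± 0.11 and 2.93 ± 0.11, and CFB, a complement protease, by 1.13 ± 0.10 and 1.58 ± 0.10. LCN2, which binds bacterial siderophores, was already at 96.7 CPM in the ethanol libraries and rose by 0.54 ± 0.05 and 0.62 ± 0.05. Lysozyme (LYZ), at 1290 to 1670 CPM in all libraries, was not called. S100A8, DEFB103A, REG1A and S100A12 had no count in any library.

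Of 21 measured NF-kB subunits and feedback genes 5 rose at the low and 10 at the medium dose, and none fell. The largest were ICAM1, an adhesion molecule for leukocytes (0.72 ± 0.07 and 1.04 ± 0.06), BIRC3, an inhibitor of cell death (0.70 ± 0.07 and 0.78 ± 0.07), and then ZC3H12A, an RNase of cytokine messages, at the low dose (0.41 ± 0.04) and TNFAIP3, a brake on NF-kB, at the medium dose (0.61 ± 0.11). The median change over the list was 0.10 and 0.14 log2 units, with 0 over all genes tested. None of the 19 measured sensing receptors and adaptors was called by edgeR, among them TLR4, MYD88 and TIFA, and none of the 6 AU-rich element binding proteins. Of all genes 0.45% were called at the low and 0.584% at the medium dose. With shares this small, 0 calls in short lists is no result about their genes. LY96, the co-receptor of TLR4, reached at most 2 counts and TLR5, the flagellin receptor, at most 7, and TLR2 had none. The receptors of the members were also near 0. CXCR1, CXCR2, CCR6, ACKR1 and FPR2 reached at most 3 counts in any library and were not tested.

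In Glycyrrhizae Radix NF-kB genes were called up with dose, while no member was called up. From low to high dose 11 of its 21 measured genes rose and 1 fell, with 24.9% of all genes called, led by NFKB2 (0.72 ± 0.06), RELB (0.72 ± 0.09) and ICAM1 (0.60 ± 0.11). In the same libraries CXCL1 was at -0.19 ± 0.21 and CXCL8 at 0.23 ± 0.09 (edgeR adjusted p = 0.0617). Of the 10 measured genes of the defence list 2 rose, WFDC2 (1.08 ± 0.11) and LCN2 (0.39 ± 0.08), and 1 fell. The latter was PIGR, which fell by 1.10 on the log2 scale (SE 0.32) at less than 1 CPM. TLR6, a partner of TLR2, rose with dose in all 4 ethanol extracts, by 0.81 ± 0.17 in Poria Cocos, 0.88 ± 0.16 in Atractylodis Rhizoma, 0.78 ± 0.17 in Panax Ginseng and 1.45 ± 0.16 in Glycyrrhizae Radix.

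The 10 genes whose group means followed the members most closely were found among 13146 candidates by Pearson r over the 19 groups. They were CXCL6 (r = 0.992), CFB (0.977), PIGR (0.973), SOD2 (0.951), POU2F2 (0.929), PLK2 (0.923), CCDC88B (0.92), ZC3H12A (0.917), ICAM1 (0.914) and TNFAIP3 (0.9). Candidates needed a mean of at least 1 CPM. Outside the decoctions CXCL6 (0.262 CPM) and PIGR (0.504 CPM) were below that, so these 2 became candidates through the decoction libraries. The members' pattern includes the high dose decoction values used to choose them, so this ranking is a description. The r mainly reflects the gap between the 6 decoction groups and the rest, which share a preparation and the leading number of the sample code. Over the 6 decoction groups alone it was 0.956 for CXCL6, 0.924 for CFB and 0.907 for POU2F2, but 0.049 for PIGR, which stayed level with dose. The sizes also differed. SOD2, a mitochondrial superoxide dismutase, was at 93.6 CPM in the decoctions and 77.1 in the other libraries, and PLK2 at 168 and 152, whereas CXCL6 was at 3.35 and 0.262.

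**Figure D4:**
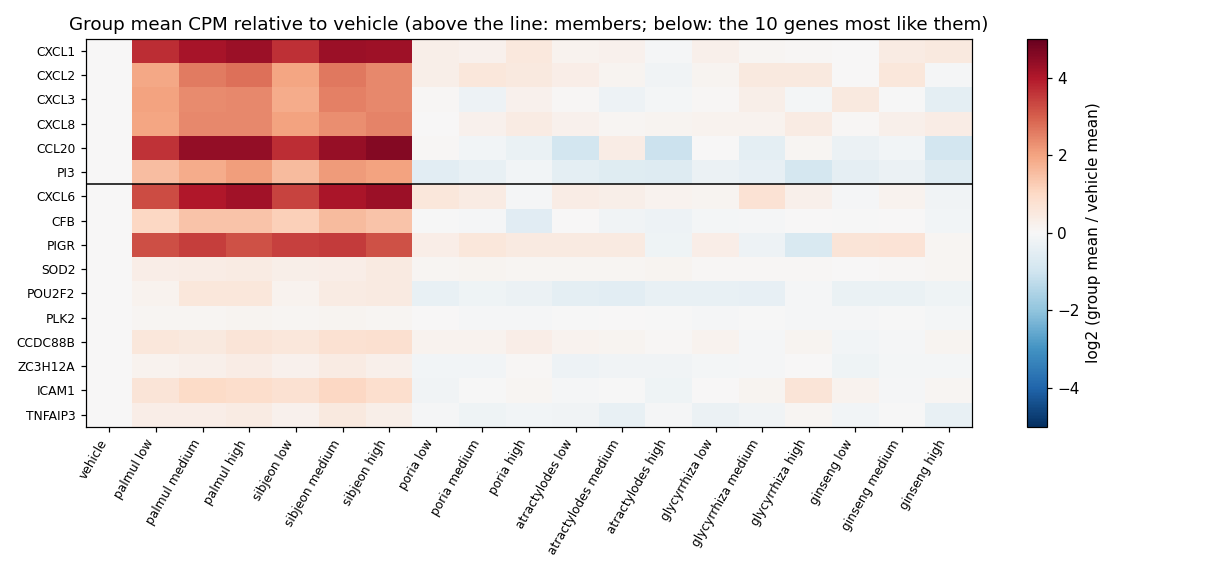
Log2 ratio of group mean CPM to the vehicle mean (colour) in 19 groups (columns) for 6 members (upper rows; CXCL5 and SAA1 are left out because vehicle was at 0) and the 10 genes most like them (lower rows). The 6 decoction columns are red in the member rows and in CXCL6, PIGR and CFB, while SOD2 and PLK2 are nearly uncoloured because their levels differ little (93.6 against 77.1 and 168 against 152 CPM).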

How the data were processed

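mRNA sequencing of 60 HT29 libraries (directional kit, paired-end reads) was used. The authors deposited expected counts (estimated counts per Ensembl gene), and per the submitters' processing notes FastQC 0.11.9, Trim Galore 0.6.5, STAR 2.7.3a and RSEM 1.3.3 were run with hg38/GRCh38. The annotation and strand setting are not given in the sources used here. The table also holds 213 columns of other samples, which were not used. Positive controls were not analysed here.

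Expected counts were rounded to whole numbers. The 57 libraries of the 19 groups with 3 libraries were fitted together in edgeR 4.0.16 (R 4.3.3; TMM factors of 0.956 to 1.031, filterByExpr by group, glmQLFit and glmQLFTest, 38 residual degrees of freedom), and p-values were adjusted by Benjamini-Hochberg over 16445 genes in each of 20 comparisons, with a threshold of 0.05. The code was tested on simulated data. The members and gene lists were chosen with earlier results of these data known. All 8 members are named. Per list and comparison up to 3 called genes of at least 1 CPM with the largest changes are named, and genes given at lower levels or as not called were chosen after their values were seen. Likeness used log2 CPM (prior count 2) of genes with at least 1 CPM. Same-numbered libraries deviated from their group means together only weakly (median r 0.081, lowest -0.339, highest 0.471, 513 pairs). The median was -0.041 for differently numbered libraries. Within the leading code numbers 8, 9 and 10 the medians were 0.102, 0.101 and 0.132, against -0.05, -0.056 and -0.078. Replicate numbers were not taken as pairs in the main fit, and fits with replicate blocks are among the alternatives. Replicate libraries differed beyond sampling noise. Alternatives were RLE factors, no filter, DESeq2 1.42.0, only the groups compared, replicate blocks, the mitochondrial share and each library left out.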

Additional observations from a re-analysis of the deposited data

How the results depend on the processing

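At 100 µg/mL CXCL1, CXCL2, CXCL3, CXCL8 and PI3 were called between decoctions and ethanol extracts under RLE factors, no filter and DESeq2. They were also called with the compared groups alone, the replicate block, the mitochondrial share and each of 15 libraries left out. At 20 µg/mL the decoction libraries are also an arm of values known when the genes were chosen. Members were called there under the same settings, but these calls are a description and say nothing about stability. CXCL5, SAA1 and CCL20 entered these fits through the decoction libraries, so their calls at either dose (8 members in all) say nothing about stability. Over these settings the CXCL1 log2 fold change ranged from 3.87 to 3.96 at 100 µg/mL and from 3.44 to 3.57 at 20 µg/mL. The small calls moved. Without a filter, 2 members were called for Poria Cocos high against low, 1 for Panax Ginseng high against low, 4 each for medium against low in Palmul-tang and Sibjeondaebo-tang, 1 between the formulas at the medium dose and 2 between Poria Cocos and Atractylodis Rhizoma at the high dose. With the compared groups alone, 0 members were called in Poria Cocos and 0 in Panax Ginseng (high against low), and 2 in Sibjeondaebo-tang (medium against low). DESeq2 called 1 in Panax Ginseng and 2 in Sibjeondaebo-tang. The cause was not tested. With the replicate block, or with a block within the leading number of the sample code, 3 members were called in Sibjeondaebo-tang medium against low, and the latter gave 2 in Glycyrrhizae Radix high against low. In the other comparisons the number of members called was the same with either block; for decoctions against ethanol extracts only the replicate block was run. The block raised the number of all genes called from 306 to 465 in Poria Cocos and from 415 to 623 in Panax Ginseng, high against low. With each library left out, members called ranged from 0 to 1 in Poria Cocos, 0 to 1 in Glycyrrhizae Radix and 0 to 2 in Panax Ginseng (high against low), 0 to 1 in Palmul-tang and 1 to 2 in Sibjeondaebo-tang (medium against low), and 0 to 1 for the difference between Glycyrrhizae Radix and Panax Ginseng. Of the 10 genes most like the members by Pearson r, 1 was among the 10 highest by Spearman rho. No called value of a member changed sign. The number of all genes called ranged over these settings from 53 to 286 (74 as reported) and from 74 to 215 (96) for decoctions against ethanol extracts at 20 and 100 µg/mL, the highest without a filter. It was 519 without a filter and 92 with groups alone in Poria Cocos (306), and 115 with groups alone in Panax Ginseng (415), high against low. Without a filter, 84 and 91 genes were called for medium against low in Palmul-tang and Sibjeondaebo-tang (1 each). Depth limits levels under 1 CPM (CXCL5, SAA1, and CXCL2 and CCL20 outside the decoctions), which rest on few counts.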

Other observations

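Beyond the gene lists, the 74 and 96 genes called between decoctions and ethanol extracts at 20 and 100 µg/mL included further genes outside those lists, named here after their values were seen. MIR3142HG, the host transcript of microRNA-146a, was at 0.379 against 0.0235 CPM at 20 µg/mL (log2 fold change 4.24 ± 0.49 SE). At 100 µg/mL it was at 0.595 against 0.0234 CPM (4.58 ± 0.42). Its ethanol means were below the filter minimum of 0.394 CPM, so it may have entered the fit through the decoction libraries. The same holds for IL4I1 (0.338 and 0.27 CPM) and, at 20 µg/mL, CEACAM7 (0.372 CPM), and these values are a description. IL4I1, a secreted amino acid oxidase, rose by 1.90 ± 0.22 and 2.49 ± 0.22. CEACAM7, an adhesion protein of colonic epithelium, rose by 1.74 ± 0.21 and 1.93 ± 0.20, and DMBT1, a mucosal protein that binds bacteria, by 1.02 ± 0.19 and 1.42 ± 0.18. MMP7, a protease that activates defensins, was abundant, at 63.2 against 44.6 CPM at 20 µg/mL (0.50 ± 0.05), and rose by 0.60 ± 0.05 at 100 µg/mL.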
